A study of Mus musculus with 8 samples.

Results

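The integrin genes of epithelial cells were described in the WT mTEC 3.10 line and in the mutant clone E6. The members are 10 gene symbols taken by name from the 24052 genes counted in each library, namely the alpha subunits *Itga2*, *Itga3*, *Itga5*, *Itga6* and *Itgav* and the beta subunits *Itgb1*, *Itgb4*, *Itgb5*, *Itgb6* and *Itgb8*. The list was drawn up with the differences between E6 and WT already known, so those differences are given as a description, while the effect of thymocyte adhesion was tested. All 10 members had at least 1 count in some library, 9 had enough counts for testing and *Itgb8* did not.

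An integrin is a cell surface receptor made of 1 alpha and 1 beta chain, which binds the extracellular matrix or another cell outside and the actin or keratin cytoskeleton inside. *Itgb1* encodes the shared beta chain that pairs with the chains of *Itga2* (a collagen receptor), *Itga3* and *Itga6* (laminin receptors) and *Itga5* (the fibronectin receptor). The chains of *Itga6* and *Itgb4* form the receptor of hemidesmosomes, the junctions that tie the keratin filaments of an epithelial cell to laminin. The chain of *Itgav* pairs with those of *Itgb5*, a vitronectin receptor, and of *Itgb6* and *Itgb8*, which bind and activate latent TGF-beta. Medullary thymic epithelial cells (mTECs) present self antigens to developing T cells and hold them by direct contact.

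RNA-Seq was done on mTEC 3.10, a mouse mTEC line of the C57BL/6 strain at passage 2 with WT *Aire*, and on E6, a single clone of this line made with Crispr-Cas9 directed at *Aire* exon 3. The labels give the clone as Aire +/- and also as Aire KO, while the methods of the study describe mutations in both alleles, and a single clone cannot separate the *Aire* mutation from what else sets that clone apart. Each cell type was sequenced before thymocyte adhesion and after it, which was 12 h of co-culture with 50 thymocytes of C57BL/6 mice per mTEC, after which adherent thymocytes were washed off and the mTECs were trypsinized. There were 2 libraries per condition and 8 in all. Cells had been cultured for 24 h in 3 libraries, namely replicate 2 of WT after adhesion, replicate 1 of E6 before and replicate 1 of E6 after adhesion, and for 12 h in the remaining 5. The protocol text of E6 before adhesion speaks of co-culture, against the titles and source names that were followed here. The replicates of WT after, E6 before and E6 after adhesion thus differ in culture time, and the spread within these conditions includes that difference. Beyond this, nothing in the labels says that the replicates were separate cultures. The p-values therefore measure only the spread between these libraries.

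Depth ranged from 13506610 to 20145154 counts on genes per library. Levels are given in CPM, the count divided by the TMM-scaled library size. A gene with 3 counts, the floor used here, lay at 0.149 to 0.222 CPM on library sizes without TMM scaling. That floor reflects counting error alone. *Aire* itself had 0 counts in 6 libraries and 3 counts in replicate 2 of WT after adhesion and of E6 after adhesion, so its level does not check the labels. The epithelial marker genes summed to between 4322 and 5931 CPM in every library, with *Krt5* at 3 to 21 counts and *Cldn3* at 0 to 2 counts. Replicate 1 of WT after adhesion stood apart. Its counts had a slope of -0.457 on the log2 scale per 10% of GC content over 9731 genes, against slopes from -0.0232 to 0.132 in the other libraries. It also had 33.3% of its counts assigned to no gene, against 21.2% to 24.3% in the other libraries. The GC correction used below does not bear on that share. For the tested members, the averaged fold changes of E6 against WT are given with and without this library. Other fold changes that rest on it are given without it only in part.

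**Figure D1:**
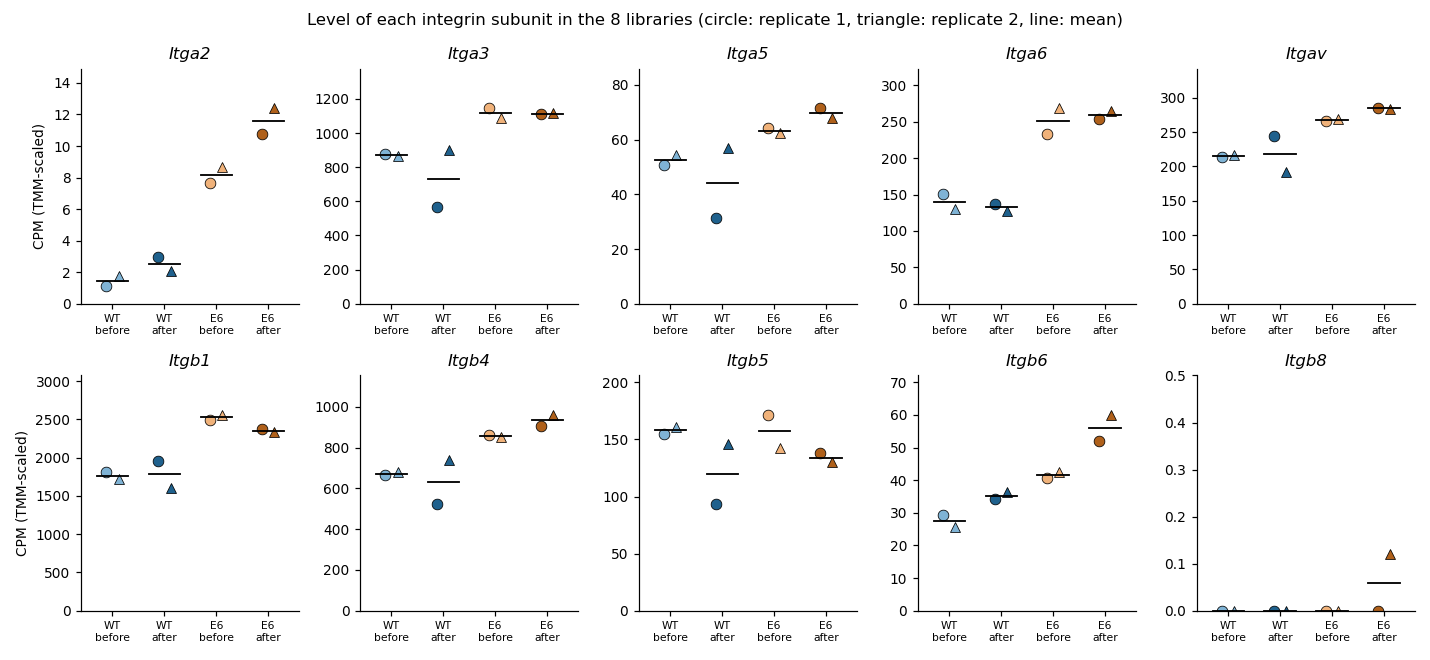
Level of each of the 10 integrin subunits in the 8 libraries, in CPM scaled by TMM on a linear axis from 0, with circles for replicate 1, triangles for replicate 2 and a line for the mean of the condition. In 8 of the 10 panels every E6 library lies above every WT library, and *Itgb8* is at 0 in 7 of 8 libraries.

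RefSeq promoter entries on GRCm38.p6 were found for 8 of the 10 members, each covering 250 bases before and 50 bases after a transcript start. Those of 4 members are printed because these members mark the extremes of the data. *Itga2* and *Itgb6* differed between the cell types, *Itgb1* was the most abundant, and *Itgb8* was next to silent. *Itga2* lies on the minus strand of chromosome 13 (promoter chr13:114932051-114932350), *Itgb6* on the minus strand of chromosome 2 (chr2:60722554-60722853), *Itgb1* on the plus strand of chromosome 8 (chr8:128685404-128685703) and *Itgb8* on the minus strand of chromosome 12 (chr12:119238227-119238526). Sequences run 5′ to 3′ along the gene, and capitals mark GGGCGG, the GC box, on either strand.
Itga2: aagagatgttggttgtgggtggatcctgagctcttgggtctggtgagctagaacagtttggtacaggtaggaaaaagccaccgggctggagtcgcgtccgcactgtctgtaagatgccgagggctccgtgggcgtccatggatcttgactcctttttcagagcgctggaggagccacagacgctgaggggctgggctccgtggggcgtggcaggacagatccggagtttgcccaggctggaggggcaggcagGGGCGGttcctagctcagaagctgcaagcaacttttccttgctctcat
Itgb6: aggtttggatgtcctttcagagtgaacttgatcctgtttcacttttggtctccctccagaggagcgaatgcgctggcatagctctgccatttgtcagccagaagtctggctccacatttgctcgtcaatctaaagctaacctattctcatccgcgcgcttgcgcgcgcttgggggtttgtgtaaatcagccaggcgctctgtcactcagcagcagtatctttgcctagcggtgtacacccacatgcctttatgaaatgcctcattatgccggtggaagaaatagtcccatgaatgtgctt
Itgb1: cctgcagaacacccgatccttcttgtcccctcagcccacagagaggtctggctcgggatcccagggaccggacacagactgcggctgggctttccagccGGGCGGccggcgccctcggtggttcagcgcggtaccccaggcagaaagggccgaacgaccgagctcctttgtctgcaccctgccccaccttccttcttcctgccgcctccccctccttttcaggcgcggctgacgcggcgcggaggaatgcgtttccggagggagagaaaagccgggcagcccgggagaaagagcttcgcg
Itgb8: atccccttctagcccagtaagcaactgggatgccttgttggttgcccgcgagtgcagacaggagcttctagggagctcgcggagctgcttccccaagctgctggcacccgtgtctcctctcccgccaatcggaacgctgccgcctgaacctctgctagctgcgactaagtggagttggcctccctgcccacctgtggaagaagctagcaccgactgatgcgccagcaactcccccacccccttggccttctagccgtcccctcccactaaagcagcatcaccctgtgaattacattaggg

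The *Itgb1* promoter held 27 CpG dinucleotides and the *Itga2*, *Itgb6* and *Itgb8* promoters 13, 12 and 13, against a median of 7 (quartiles 3 and 20) over 32851 promoters of the same length. A second *Itgb6* entry (chr2:60673644-60673943), not printed, held 3 CpG. The GC box occurred 1 time in *Itga2* and 1 time in *Itgb1* and was not found in *Itgb6* or *Itgb8*, while 35.66% of all promoters held it. The AP-1 motif TGANTCA, held by 7.808% of all promoters, and the TATA box TATAAA, held by 13.62%, were in none of the 4 printed windows, both strands searched. Among the other members, only the second entry of *Itga3* held an AP-1 motif. Such matches describe these windows and say nothing about binding.

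Levels of different genes were compared as CPM per kilobase of exon, since longer transcripts collect more reads. *Itgb1* was the most abundant subunit, at 516 ± 92.1 CPM per kilobase (SD, n = 8), above *Itga3* in 8 of 8 libraries. *Itga3* followed at 168 ± 34.7 and *Itgb4* at 110 ± 21.0 CPM per kilobase. *Itgb5* stood at 40.0 ± 6.71, *Itgav* at 22.9 ± 3.29 and *Itga6* at 21.7 ± 7.18 CPM per kilobase. *Itga5* was at 11.6 ± 2.56, *Itgb6* at 5.64 ± 1.62 and *Itga2* at 0.832 ± 0.626 CPM per kilobase. This order held in all 8 libraries for every neighbouring pair but *Itgav* and *Itga6*, with *Itgav* higher in 4 of 8 libraries. With the mean length of the coding transcripts in place of the exons, *Itgav* (79.8) moved above *Itgb5* (50.4), *Itgb5* and *Itga6* (49.9) changed places in 4 of 8 libraries, and *Itga5* was above *Itgb6* in 6 of 8.

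**Figure D2:**
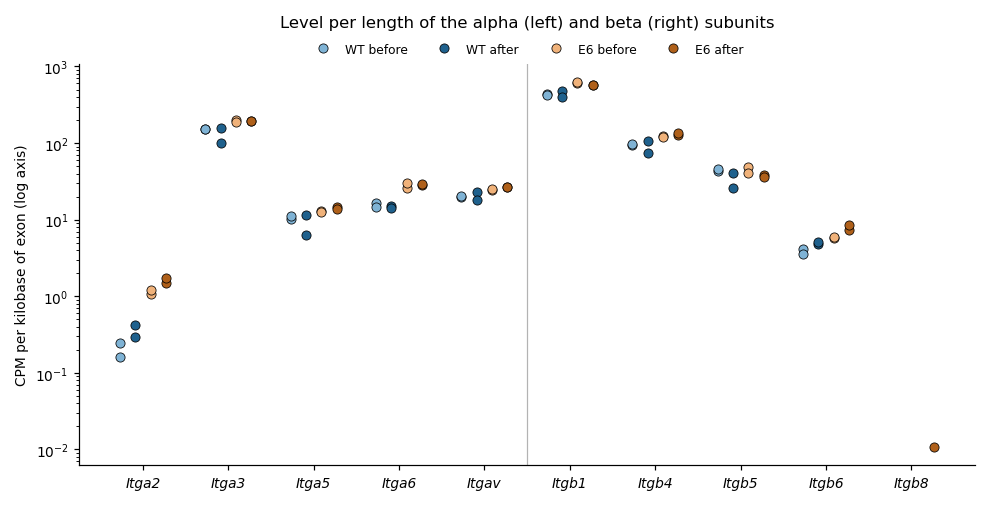
Level per length of the alpha subunits (left) and beta subunits (right), in CPM per kilobase of exon on a log axis, with a point for each of the 8 libraries coloured by condition. *Itgb1* lies highest, from 394 to 627, and *Itga2* runs from 0.162 to 1.74. Libraries with 0 counts of *Itgb8* cannot be drawn on this axis.

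Read as alpha and beta pairs on the same per-length scale, the mRNA of the shared beta chain exceeded that of its partners. *Itgb1* was 2.41 ± 0.625 times the sum of the 5 alpha subunits in WT (SD, n = 4) and 2.26 ± 0.125 times in E6 (SD, n = 4). *Itga3* made up most of the alpha mRNA, at 75.1% ± 4.2 in WT and 73.9% ± 1.2 in E6. *Itga6* made up 8.31% ± 1.6 of it in WT and 10.7% ± 0.76 in E6, with overlap between the WT libraries (7.03% to 10.6%) and the E6 libraries (9.71% to 11.5%). The WT value of 10.6% came from the GC-affected library, and the other WT libraries, at 7.03% to 8.30%, did not overlap E6. *Itga2* never exceeded 0.653% of the alpha mRNA. Among the beta subunits, *Itgb1* took 76.6% ± 3.0, *Itgb4* 16.4% ± 2.0, *Itgb5* 6.08% ± 1.4 and *Itgb6* 0.834% ± 0.16 (SD, n = 8). The sizes of these shares, and of the ratios between members below, depend on the gene length used. With the mean length of the coding transcripts *Itgb4* was at 130 and *Itga6* at 49.9 CPM per kilobase, against 110 and 21.7 with the exons.

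*Itga2*, the gene of the collagen receptor chain, differed most between the cell types. Its level in WT was 1.15 and 1.77 CPM before adhesion and 2.98 and 2.08 CPM after it, on 19 to 43 counts per library. In E6 it was 7.63 and 8.68 CPM before adhesion and 10.8 and 12.4 CPM after it, on 110 to 208 counts. Every E6 library thus lay above every WT library, by a log2 FC of 2.35 (SE 0.19, FDR 0.00057 in edgeR's quasi-likelihood test) averaged over both conditions, which is 5.11-fold. The log2 FC was 2.49 before adhesion and 2.21 after it, and 2.51 averaged without replicate 1 of WT after adhesion. *Itga2* nevertheless remained the least abundant tested subunit in both cell types, at 0.00233 ± 0.0006 of the *Itgb1* level per length in E6 (SD, n = 4) and 0.000642 ± 0.00022 in WT (SD, n = 4).

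*Itga6* and *Itgb4*, the genes of the hemidesmosome receptor, were both higher in E6, but not to the same extent. *Itga6* was at 150 and 130 CPM before and 137 and 128 CPM after adhesion in WT, and at 233 and 269 CPM before and 254 and 265 CPM after adhesion in E6. All E6 libraries exceeded all WT libraries, with an averaged log2 FC of 0.91 (SE 0.09, FDR 0.00122), which is 1.87-fold. *Itgb4* was at 664 and 680 CPM before and 522 and 740 CPM after adhesion in WT, and at 860 and 850 CPM before and 907 and 961 CPM after adhesion in E6. Its averaged log2 FC was 0.46 (SE 0.12, FDR 0.0348), which passed the FDR limit and not the FC limit of 1.5. The ratio of *Itgb4* to *Itga6* per length was 6.19 ± 1.1 in WT and 4.52 ± 0.31 in E6 (SD, n = 4 each). The lowest WT ratio, 4.90, came from the GC-affected library and lay just above the highest E6 ratio of 4.75.

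*Itgb6*, 1 of the beta chains that bind latent TGF-beta, was the third member to pass both limits. It was at 29.3 and 25.6 CPM before and 34.1 and 36.4 CPM after adhesion in WT, and at 40.8 and 42.4 CPM before and 52.1 and 60.1 CPM after adhesion in E6. The 4 E6 libraries lay above the 4 WT libraries, with an averaged log2 FC of 0.63 (SE 0.09, FDR 0.00456), which is 1.55-fold and close to the FC limit. Its alpha partner *Itgav* was at 214 and 217 CPM before and 244 and 193 CPM after adhesion in WT, and between 266 and 285 CPM in the E6 libraries. *Itgav* had a log2 FC of 0.35 (SE 0.09, FDR 0.0391), short of the FC limit. The ratio of *Itgb6* to *Itgav* per length was 0.221 ± 0.046 in WT and 0.266 ± 0.040 in E6 (SD, n = 4 each), and the libraries of the cell types overlapped.

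*Itgb5*, the vitronectin receptor chain that also pairs with *Itgav*, was the tested member with no separation of the cell types. It was at 155 and 161 CPM before and 93.2 and 146 CPM after adhesion in WT, and at 172 and 143 CPM before and 138 and 130 CPM after adhesion in E6. The averaged log2 FC was 0.08 with a 95% interval from -0.27 to 0.42 (FDR 0.755). Without replicate 1 of WT after adhesion it was -0.05. *Itgb6* amounted to 0.120 ± 0.046 of *Itgb5* per length in WT and to 0.172 ± 0.049 in E6 (SD, n = 4 each), with overlap between the cell types.

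*Itgb1* and 2 of its alpha partners, *Itga3* for laminin and *Itga5* for fibronectin, differed less than *Itga6*. *Itgb1* was at 1806 and 1716 CPM before and 1951 and 1608 CPM after adhesion in WT, and at 2489 and 2561 CPM before and 2371 and 2334 CPM after adhesion in E6, with a log2 FC of 0.46 (SE 0.09, FDR 0.0150). *Itga3* was at 877 and 863 CPM before and 564 and 900 CPM after adhesion in WT, against 1086 to 1148 CPM in the E6 libraries. Its log2 FC was 0.48 (SE 0.15, FDR 0.0538), and 0.35 without the GC-affected library. *Itga5* was at 50.7 and 54.5 CPM before and 31.3 and 57.0 CPM after adhesion in WT, against 62.4 to 71.7 CPM in the E6 libraries, with a log2 FC of 0.46 (SE 0.17, FDR 0.104) and 0.29 without that library. All 3 were lower in every WT library than in every E6 library, and none reached an FC of 1.5 averaged over both conditions. After adhesion the FC was 1.52 for *Itga3* (FDR 0.103) and 1.57 for *Itga5* (FDR 0.129), which were not DE in edgeR. DESeq2 gave *Itga3* as DE there (log2 FC 0.62, FDR 0.0377). With 1 library left out, the lowest log2 FC after adhesion was 0.34 for *Itga3* and 0.32 for *Itga5*. With each library corrected for GC content, all 3 passed the FDR limit, at an FDR of 0.00122 for *Itgb1*, 0.00647 for *Itga3* and 0.0178 for *Itga5*, and still not the FC limit in the averaged comparison.

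*Itgb8*, the other beta chain that activates TGF-beta, had 0 counts in 7 libraries and 2 counts in replicate 2 of E6 after adhesion, which is 0.119 CPM and below the floor of 0.184 CPM in that library. A difference in *Itgb8* was therefore not detectable at this depth.

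Counted together, 3 of the 9 tested members were DE mRNAs in E6 against WT averaged over both conditions, all 3 higher in E6. Of all 11672 tested genes, 11.3% were DE and 5.22% were DE and higher. Before adhesion the same 3 members were DE (all genes 5.01%), and after adhesion again these 3 (all genes 8.91%). These within-condition counts rested on single libraries, since 0 members were DE before adhesion without replicate 1 or 2 of WT or replicate 2 of E6, and 0 after adhesion without replicate 1 or 2 of E6. Before adhesion *Itgb6* also lost its call with no filter on low counts (FDR 0.0621) and with the replicate block (FDR 0.0806). After adhesion all 3 lost theirs when only the 4 compared libraries were fitted, at an FDR of 0.0794 for *Itga2*, 0.104 for *Itga6* and 0.191 for *Itgb6*. Since this contrast was known when the members were listed, the counts carry no test. Without replicate 1 of WT after adhesion the averaged log2 FC was 0.95 for *Itga6*, 0.63 for *Itgb6*, 0.55 for *Itgb1*, 0.46 for *Itgav* and 0.36 for *Itgb4*, and the same 3 members were DE. Without replicate 2 of E6 after adhesion *Itgb6*, at 0.58, fell short of the FC limit. Without replicate 2 of WT after adhesion, which leaves the GC-affected library alone in its condition, 6 members were DE, with *Itga3* at 0.68, *Itga5* at 0.72 and *Itgb4* at 0.61. The median log2 FC of the 9 tested members was 0.46, against -0.01 for all tested genes. In 8 of the 10 members every E6 library exceeded every WT library, and 15.7% of all tested genes showed this. The summed level of the 10 members was 756 ± 25 CPM per kilobase in WT and 1037 ± 18 in E6 (SD, n = 4 each), without overlap.

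**Figure D3:**
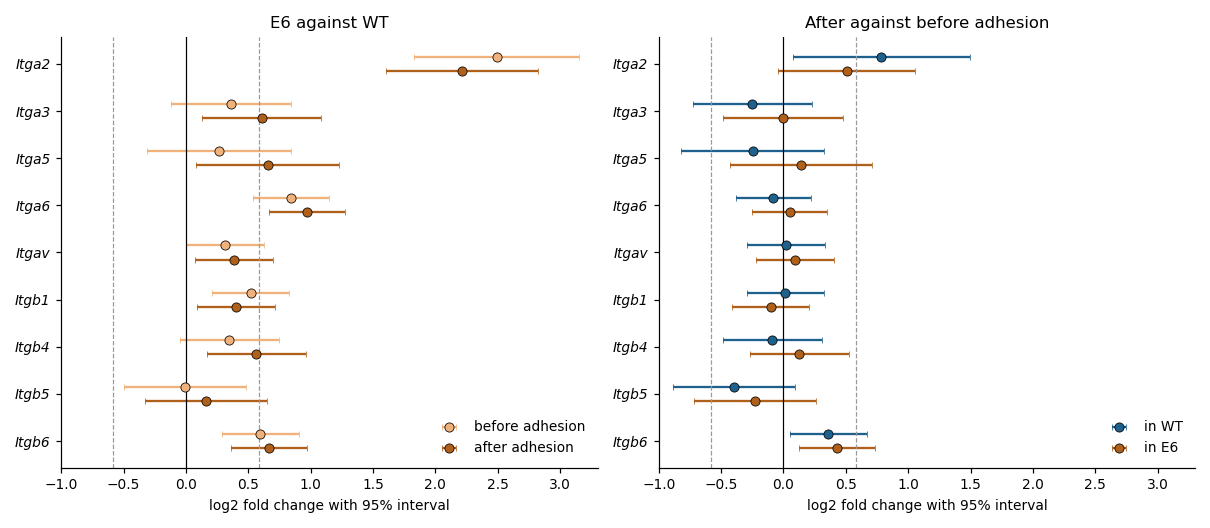
Log2 fold change (x axis) of the 9 tested members, E6 against WT on the left and after against before adhesion on the right, with bars for the 95% interval and dashed lines at an FC of 1.5 in either direction. On the left *Itga2* lies far to the right of the line at 2.49 and 2.21, and on the right the intervals that exclude 0 are those of *Itgb6* in WT and E6 and of *Itga2* in WT.

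The members *Itga6*, *Itgav* and *Itgb6* lie on chromosome 2 of GRCm38, at 71745616 to 71858416, 83724397 to 83806916 and 60598292 to 60722643. The median log2 FC of E6 against WT over 785 genes of chromosome 2 was 0.02. In windows of 10 Mb around these members it was -0.11 over 38 genes for *Itga6*, 0.10 over 18 genes for *Itgav* and -0.08 over 15 genes for *Itgb6*. *Itga2*, at 114833081 to 114932100 of chromosome 13, had a window median of -0.09 over 25 genes. The neighbouring genes of the 3 DE members thus had medians near 0, and 2 of 38, 0 of 15 and 1 of 25 of them were DE. *Itgav* shares 634 exonic bases with *Gm13684* and *Itgb4* 537 with *B230344G16Rik*, both annotated on the opposite strand. The strand setting of the counting is not given in the sources used here, so reads of those overlaps could not be assigned to a strand.

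The genes whose levels followed the 3 DE members most closely over the 8 libraries were found by the distance between centred log2 CPM values among 10291 genes. For *Itga2* they were *Cyp2j6*, *P2ry12* and *Atp10b*, at distances of 0.804, 0.885 and 0.911. For *Itga6* they were *Dock8*, *Mtmr10* and *Mical2*, at 0.190, 0.206 and 0.241. For *Itgb6* they were *Helq*, *Mafk* and *Lats2*, at 0.309, 0.340 and 0.344. None of the 9 is an integrin gene.

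Adhesion was then examined, the contrast on which the study was built. No member was a DE mRNA after against before adhesion averaged over WT and E6, while 1.89% of all tested genes were. There was none in E6 (all genes 2%) and none in WT (all genes 0%), and none differed in its adhesion effect between E6 and WT (all genes 0%). DESeq2 gave 0 members in all 4 comparisons too. In edgeR no gene at all was called in WT or in the difference, so these comparisons cannot decide about the members. In WT even the 12 tested thymocyte markers, with a median log2 FC of 4.99, were not DE. The median averaged log2 FC of the 9 tested members was -0.02, against 0.0042 for all tested genes. At an unadjusted p under 0.05 there were 2 members in the averaged comparison (all genes 9.89%), 2 in WT (7.48%), 1 in E6 (6.97%) and 0 in the difference (2.54%). Marker genes of thymocytes moved with adhesion, since the 16 measured of the 25 listed summed to 0.972 to 1.33 CPM in WT before and 12.4 to 16.7 CPM after adhesion, and to 1.66 to 3.05 CPM in E6 before and 82.3 to 101.8 CPM after it. Of these 16 markers, 11 and 11 had 0 counts in the WT libraries before adhesion, 4 and 0 after it, 9 and 14 in E6 before and none in E6 after adhesion. Their part in the values below, and in E6 against WT after adhesion, was not tested, and in such bulk samples fewer cells of a type and less RNA per cell cannot be told apart.

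*Itgb6* and *Itga2* were the members nearest to an adhesion effect. *Itgb6* was higher after adhesion in both libraries of each cell type without overlap, from 25.6 and 29.3 to 34.1 and 36.4 CPM in WT and from 40.8 and 42.4 to 52.1 and 60.1 CPM in E6. Its averaged log2 FC was 0.40 (95% interval 0.18 to 0.61, unadjusted p = 0.00323, FDR 0.109 in edgeR), with 0.36 in WT and 0.43 in E6. Without replicate 1 of WT after adhesion the averaged value was 0.43, still below an FC of 1.5. That fit leaves 1 WT library after adhesion, cultured for 24 h, against WT libraries before adhesion cultured for 12 h. Adhesion and culture time in WT cannot be told apart in it. *Itga2* had an averaged log2 FC of 0.65 (95% interval 0.20 to 1.10, unadjusted p = 0.0112, FDR 0.243), with 0.79 in WT and 0.51 in E6. Here too both libraries after adhesion exceeded both before it in each cell type. How many of all tested genes were separated in this way was not counted. For these members and for *Itgb5* below the separation is therefore a description only. Without replicate 1 of WT after adhesion the averaged *Itga2* value was 0.53, with the same limit.

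For the other members the averaged adhesion effect had an interval that included 0. The 95% interval of the log2 FC was -0.23 to 0.20 for *Itga6*, -0.26 to 0.18 for *Itgb1*, -0.17 to 0.28 for *Itgav* and -0.26 to 0.30 for *Itgb4*. For *Itga3* it was -0.47 to 0.21 and for *Itga5* -0.46 to 0.35. *Itgb5* had -0.31 (95% interval -0.66 to 0.03, unadjusted p = 0.0686, FDR 0.559), and both libraries after adhesion lay below both before it in each cell type. Its lowest level was in the GC-affected library. Without that library the *Itgb5* effect was -0.16. The difference of the adhesion effects, E6 minus WT, ran from -0.28 for *Itga2* to 0.39 for *Itga5*, with an FDR of at least 0.988 for every tested member.

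The members split by GC content in replicate 1 of WT after adhesion. *Itga3*, *Itga5*, *Itgb4* and *Itgb5*, with a GC content from 57.0% to 60.0%, lay 0.36 to 0.76 below the mean of WT before adhesion on the log2 scale in that library. *Itga2*, *Itgav*, *Itgb1* and *Itgb6*, with 43.6% to 44.8%, lay 0.15 to 1.00 above it, and *Itga6*, with 48.9%, was at -0.03. In replicate 2 the same 4 GC-rich members lay between -0.11 and 0.14. After a GC correction of each library, *Itga3* read 773 and 827 CPM in the WT libraries after adhesion, where the uncorrected levels were 564 and 900 CPM. With it as the only WT library after adhesion, 4 members were DE in WT, with a log2 FC of 1.04 for *Itga2*, -0.64 for *Itga3*, -0.76 for *Itga5* and -0.77 for *Itgb5*.

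**Figure D4:**
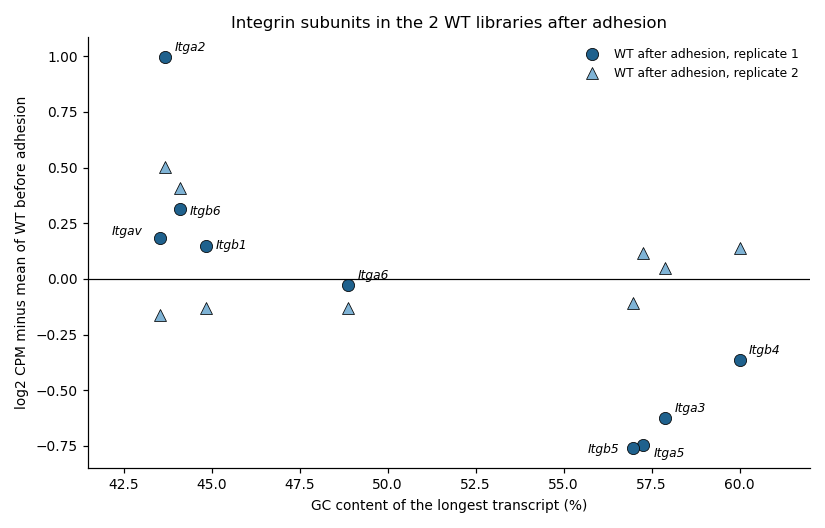
Log2 CPM of each tested member in the 2 WT libraries after adhesion, as the difference from the mean of WT before adhesion (y axis), against the GC content of its longest transcript in percent (x axis). Circles (replicate 1) run from 1.00 for *Itga2* down to -0.76 for *Itgb5*, while triangles (replicate 2) lie between -0.16 and 0.50.

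Some integrin genes outside the epithelial set rose on adhesion. Of 17 other integrin genes 6 were tested. None was DE in E6 against WT averaged (edgeR; 1 at an unadjusted p under 0.05, and 0 in DESeq2), and 3 were DE and higher after adhesion (all genes 1.79%), namely *Itga4*, *Itgal* and *Itgb2*, which encode chains of leukocyte integrins. Leaving out 1 library gave 2 to 5 such genes, with 5 without replicate 1 of WT after adhesion 4 without replicate 2 of it, and 2 when any single library of the other 3 conditions was left out. The same 3 were DE and higher in E6 than in WT after adhesion. Of all 11672 tested genes, 566 were DE and higher there, and 8.91% were DE in either direction. None of the 6 was DE in E6 against WT before adhesion (edgeR, 0 at an unadjusted p under 0.05). *Itga4* had 0 counts in both WT libraries before adhesion and 20 and 19 after it, and 1 and 0 counts in E6 before and 141 and 106 after it. *Itgal*, the alpha chain of LFA-1, had 0 and 0 counts before and 25 and 25 after adhesion in WT, and 1 and 0 before and 133 and 100 after adhesion in E6. *Itgb2*, its beta chain, was at 4.01 and 3.54 CPM before and 4.33 and 5.37 CPM after adhesion in WT, and at 3.26 and 3.64 CPM before and 8.26 and 8.84 CPM after adhesion in E6 (averaged log2 FC 0.83, FDR 0.0368). These 3 genes were highest in E6 after adhesion, as was the sum of the thymocyte markers. Markers of other cells moved too, since 3 of 5 tested myeloid markers (*Lyz2*, *Emr1* and *Cd68*) and the 1 tested endothelial marker (*Pecam1*) were DE and higher after adhesion. *Lyz2* had 0 counts in all 4 libraries before adhesion and was at 0.851 and 1.16 CPM in WT and 6.52 and 5.26 CPM in E6 after it. *Pecam1* had 0 counts before and was at 0.142 and 0.194 CPM in WT and 1.86 and 1.31 CPM in E6 after adhesion. The sum of all 8 myeloid markers was 59.1 to 80.3 CPM before and 50.9 to 75.5 CPM after adhesion. Of this sum *Csf1r* alone made 39.2 to 65.9 CPM over the libraries, so a rise of the weaker markers hardly moves it. The part of RNA from such cells in the 3 integrin genes was not tested. *Itgb1*, at 1608 CPM or more in every library, showed no such rise.

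**Figure D5:**
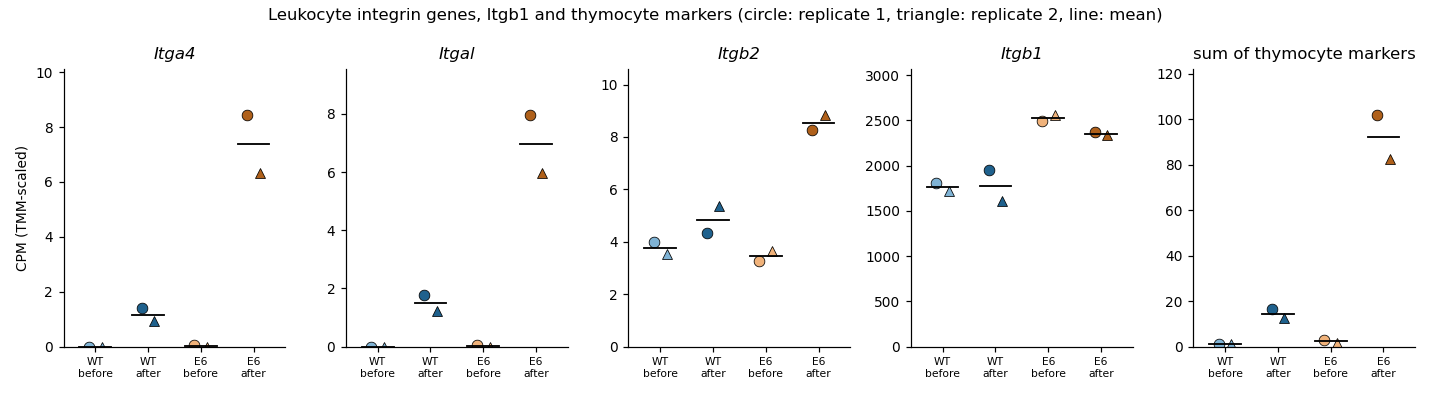
Levels in CPM of the leukocyte integrin genes *Itga4*, *Itgal* and *Itgb2*, of *Itgb1* and of the sum of 16 thymocyte markers in the 4 conditions, with circles for replicate 1, triangles for replicate 2 and a line for the mean, each panel on its own linear axis from 0. *Itga4*, *Itgal* and the marker sum are highest in E6 after adhesion, and *Itgb1* stays within 1608 to 2561 CPM.

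The matrix proteins that the members bind were largely measured, with 22 of 33 ligand genes tested. Of these, 9 were DE and higher in E6 averaged and 0 lower (all genes 5.22% higher), with a median log2 FC of 0.47 against -0.01 for all tested genes. *Tnc*, encoding tenascin C, was at 88.7 to 113 CPM in the WT and 392 to 450 CPM in the E6 libraries (log2 FC 2.08, FDR 0.000175), and is also a gene that the study picked from these libraries. *Spp1*, encoding osteopontin, was at 90.6 to 131 CPM in WT and 211 to 281 CPM in E6 (log2 FC 1.06), and *Cyr61*, encoding a matricellular ligand of integrins, at 88.7 to 133 CPM in WT and 166 to 241 CPM in E6 (log2 FC 1.01). Others among the 9 were *Lama3* and *Lamb1*, which encode laminin chains, and *Fn1*, *Col4a3* and *Hspg2*, which encode fibronectin, a collagen chain and perlecan. After against before adhesion, 0 of the 22 were DE (edgeR; 0 at an unadjusted p under 0.05, and 0 in DESeq2).

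Of 34 genes for cytoplasmic adaptors of integrins, 31 were tested, and 4 were DE and higher in E6 (all genes 5.22%) and 0 lower. *Fermt1*, encoding kindlin-1, which activates integrins in epithelial cells, was at 78.1 to 138 CPM in WT and 163 to 273 CPM in E6 (log2 FC 1.14, FDR 0.00249). *Tns3* (tensin 3) had a log2 FC of 1.07, *Pxn* (paxillin) of 0.80 and *Src*, a kinase of focal adhesions, of 0.70. In WT after adhesion *Pxn* was at 123 and 206 CPM and *Src* at 71.2 and 128 CPM. Their fold changes without the GC-affected library are not reported here. Leaving out any library other than the WT libraries after adhesion left 2 adaptors DE, and leaving out replicate 2 of WT after adhesion gave 10. After adhesion, *Fermt3*, the kindlin of blood cells, was DE and higher, at a mean of 1.06 CPM in WT before and 1.74 CPM after, and of 0.580 CPM in E6 before and 3.62 CPM after. *Apbb1ip*, an adaptor that links Rap to talin, was the other DE adaptor, at 0 CPM in WT before, 0.484 to 0.639 CPM in WT after, at most 0.0694 CPM in E6 before and 2.75 to 2.81 CPM in E6 after adhesion. With 1 library left out, 0 to 6 adaptors were DE on adhesion, 0 without replicate 1 or 2 of E6 after adhesion, 1 when any single library before adhesion was left out, and 6 without replicate 2 of WT after adhesion. The sum of the thymocyte markers, *Lyz2*, *Emr1* and *Pecam1* were, like these genes, highest in E6 after adhesion. *Cd68* was not, at a mean of 5.82 CPM in WT after and 4.78 CPM in E6 after adhesion. The sum of the myeloid markers showed no such rise, but most of it was *Csf1r*, which was present before adhesion too. The part of RNA from such cells was not tested.

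Of 10 tested genes for hemidesmosome and tetraspanin partners, 1 was DE and higher in E6 (all genes 5.22%), the tetraspanin *Cd82*, at 2.20 to 3.98 CPM in WT and 8.36 to 15.7 CPM in E6 (log2 FC 1.85, FDR 0.00134). None of the 10 was DE after adhesion.

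Of 16 tested genes for TGF-beta activation and response, 3 were DE and higher in E6 (all genes 5.22%) and 0 lower. *Tgfb1*, which encodes the ligand itself, was at 24.7 to 38.0 CPM in WT and 48.5 to 62.1 CPM in E6 (log2 FC 0.91, FDR 0.00606), and *Smad7*, an inhibitor of the pathway, at 71.6 to 87.5 CPM in WT and 109 to 138 CPM in E6 (log2 FC 0.66). After adhesion *Tgfbi* was the 1 DE gene, at 0 CPM in all 4 libraries before adhesion, 0.284 and 0.290 CPM in WT after and 1.31 and 1.38 CPM in E6 after adhesion. It was not DE when any library other than the WT libraries after adhesion was left out.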

How the data were processed

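RNA-Seq libraries of mTEC 3.10 and clone E6 were analysed from counts per gene symbol, which the authors deposited as raw whole-number read counts, 1 table per library. Per the processing notes of the submitters, STAR 2.5.0a and HTSeq were used with mm10/GRCm38. The annotation and the strand setting are not given in the sources used here, and the labels and the methods of the study name different TruSeq kits (mRNA and total RNA). Per library 21.2% to 33.3% of the counts were in the HTSeq rows for reads not assigned to a gene and were left out. The 18 symbols turned into dates in 1 table were restored. Genes were kept by filterByExpr (11672 of 24052), scaled by TMM and tested with edgeR 4.0.16 (R 4.3.3) by the quasi-likelihood test with 1 mean per condition over the 8 libraries. A DE mRNA had a Benjamini-Hochberg FDR under 0.05 over all tested genes and an FC of at least 1.5. The SE was the log2 FC over the root of F. The members and gene lists were chosen with earlier results of these data known. Outside the members, the text names up to 3 called genes of a list per direction with the largest change, and the 3 nearest genes of each member called in E6 against WT. *Src* and 5 further ligand genes were named after their values were seen, and some genes that the rule picks are not reported here. Lengths, GC content and overlaps came from GENCODE vM21 and promoters from RefSeq, and no promoter entry was matched for *Itga6* and *Itgb4*. The alternatives were RLE scaling, DESeq2 1.42.0, no filter, no FC limit, a GC correction (lowess, span 0.3), the replicate number as a block, both together, only the compared libraries, another gene length, and each library left out in turn. The tests were tested on simulated counts. Figures were drawn with matplotlib 3.10.9.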

Additional observations from a re-analysis of the deposited data

Results flagged for a closer look

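*Itga3* in the WT libraries had 1 library apart from the other 3. Replicate 1 of WT after adhesion was at 564 CPM and the others at 863 to 900 CPM, a gap of 0.89 of the whole range of the 4 libraries. Of 36 groups of 4 libraries looked at over the 9 tested members, it was the one that stood apart in this way. The limit used is passed by about 1 in 20 groups of 4 values drawn from a single population. The groups here pool conditions and share libraries, so how often chance gives such a gap in them was not tested. This library is also the one whose counts had the slope of -0.457 per 10% of GC content on the log2 scale, and *Itga3* has a GC content of 57.9%. With the GC correction the 4 WT libraries were at 890, 827, 773 and 827 CPM.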

How the results depend on the processing

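Of 477 fold changes of members under alternatives that kept every library, 450 kept their direction and their side of both limits, 5 were no longer DE, 4 became DE and 18 changed sign. All 18 were at most 0.0947 in size on the log2 scale. With the GC correction, alone and with the replicate block, the log2 FC of *Itgb5* in E6 against WT was -0.038 and -0.040 averaged and -0.0049 and -0.0069 after adhesion, and the adhesion effect of *Itga5* averaged was 0.029 and 0.028. Under the same corrections, adhesion in WT gave -0.095 and -0.095 for *Itgav*, -0.071 and -0.071 for *Itgb1*, and 0.083 and 0.082 for *Itgb4*. *Itga3* on adhesion in E6 was 0.011 with RLE scaling, 0.011 with DESeq2, 0.018 without a filter, 0.041 with the GC correction, 0.041 with GC correction and block, and 0.023 with only the compared libraries.

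With no FC limit 6 members were called in E6 against WT averaged, and with only the compared libraries 0 were DE after adhesion. The cause was not tested, beyond the lower limit and the fewer libraries of these alternatives. With 1 library left out, DE members numbered 2 to 6 in E6 against WT averaged, 0 to 3 before and 0 to 6 after adhesion, and for adhesion 0 to 1 averaged, 0 to 4 in WT, 0 in every fit in E6 and 0 to 2 in the difference. Every upper end above the count with all libraries came without replicate 2 of WT after adhesion, and the count of 2 in E6 against WT averaged without replicate 2 of E6 after adhesion. The lone library of a condition is then assumed to vary like the others.

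Signs changed with 1 library left out as follows. For *Itgb5* in E6 against WT the log2 FC ran from -0.053 to 0.27 averaged, -0.15 to 0.12 before and -0.10 to 0.55 after adhesion. Averaged adhesion effects ran from -0.32 to 0.033 (*Itga3*), -0.30 to 0.14 (*Itga5*), -0.070 to 0.035 (*Itga6*), -0.024 to 0.13 (*Itgav*), -0.11 to 0.021 (*Itgb1*) and -0.12 to 0.14 (*Itgb4*). In WT they ran from -0.64 to 0.044 (*Itga3*), -0.76 to 0.11 (*Itga5*), -0.18 to 0.023 (*Itga6*), -0.17 to 0.17 (*Itgav*), -0.14 to 0.13 (*Itgb1*) and -0.38 to 0.14 (*Itgb4*), and in E6 from -0.046 to 0.033 (*Itga3*) and -0.056 to 0.15 (*Itga6*). The difference of adhesion effects ran from -0.60 to 0.0083 (*Itga2*), -0.021 to 0.64 (*Itga3*), -0.068 to 0.28 (*Itgav*), -0.23 to 0.059 (*Itgb1*), -0.088 to 0.56 (*Itgb5*) and -0.035 to 0.17 (*Itgb6*).

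Same-numbered libraries deviated together in WT before and after adhesion (r = 0.222 across 9768 genes) and not between the other conditions (-0.0794 to 0.0232). The numbers were therefore not used as pairs in the main fit. With 2 libraries per condition this check cannot exclude a pairing. In E6 the numbers also match by culture time, at 24 h for replicate 1 and 12 h for replicate 2. With the replicate block 3 members were DE in E6 against WT averaged, 2 before adhesion, where *Itgb6* had an FDR of 0.0806, and 3 after, and 0 in each adhesion comparison. Over all genes the block gave 383 DE mRNAs before adhesion against 585 without it, 139 against 221 for averaged adhesion and 132 against 234 for adhesion in E6. With no FC limit 2444 genes were called in E6 against WT averaged, against 1324. Depth limits *Itgb8*, *Itga4* and *Itgal*, which had few or no counts before adhesion.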
